A study of Mus musculus with 5 samples.

Results

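In cells sorted from dystrophic mouse muscle, 10 genes were followed whose proteins move calcium into and out of the sarcoplasmic reticulum or hold it there: Atp2a1, Atp2a2, Pln, Sln, Ryr1, Ryr3, Cacna1s, Casq1, Casq2 and Trdn. Their probes were chosen by name, as the non-control probes to which the array design gives one of these symbols. This gave 14 probes of 55681, and 10 genes of 36409 genes and unnamed features. All 10 genes were among the 26085 that passed the filter on dim signal, which asks that at least 1 group have the gene well above background on each of its arrays. Of the 10, 5 were not well above background on any vehicle array of Sca1+ cells and a further gene, Sln, on 1 of the arrays, so 6 passed only through the groups where they were high.

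In skeletal muscle the sarcoplasmic reticulum is the store that feeds contraction. The SERCA pumps Atp2a1 and Atp2a2 draw calcium into it, and the small membrane proteins phospholamban (Pln) and sarcolipin (Sln) lower the activity of the pumps. On depolarisation the voltage sensor Cacna1s opens the release channel Ryr1, to which Ryr3 is a paralogue, while calsequestrin (Casq1, Casq2) buffers calcium in the lumen and triadin (Trdn) ties it to the channel. Casq1 and Atp2a1 are known from fast fibres, and Casq2, Pln and Atp2a2 from heart and slow fibres; Atp2a2 also has a form found in most cell types.

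The cells came from mdx mice of the C57BL/6 strain, which lack functional dystrophin, as patients with Duchenne muscular dystrophy do. Injections into the peritoneum over 45 days held vehicle or 0.6 mg per kg of trichostatin A (TSA), which inhibits histone deacetylases. Sca1+ interstitial cells (CD34+, a7-integrin+, Sca1+) were measured on 4 arrays, 2 per treatment, and muscle satellite cells, labelled MuSC (CD34+, a7-integrin+, Sca1-), to 1 array with vehicle. All groups carried the mdx mutation, the age and sex of the mice and any pooling are not given in the sources used here, and TSA was given to the whole animal. Nothing in the labels says that the replicates came from separate mice, so the spread behind each p-value is that of these samples and may be technical.

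Replicate 1 of each group lay on one slide and replicate 2 on the other. Of 59305 spots, 62.1% and 58.5% were well above background on the vehicle Sca1+ arrays, 64.7% and 66.9% with TSA and 61.3% in MuSC. The 75th percentile of processed intensity was 235 and 165 with vehicle, 326 and 452 with TSA and 240 in MuSC, so the TSA arrays were the brightest. No spot was saturated (0 on each array), and replicate arrays correlated at 0.987 (vehicle) and 0.989 (TSA). Against vehicle Sca1+ cells, the MuSC array was higher for 11 of 11 satellite cell markers and lower for 10 of 10 markers of fibroadipogenic progenitors. The MuSC array was also higher for 20 of 23 striated muscle markers and 13 of 14 smooth muscle and pericyte markers (1 lower). Over all genes tested, 10.5% were called higher and 11.7% lower. The gate gene Ly6a, which encodes Sca1, read 6.46 and 6.59 with vehicle, 5.89 and 5.71 with TSA and 1.46 in MuSC. Itga7, the gene of the a7-integrin named in both gates, read 1.35 and 1.09 with vehicle, 4.53 and 4.59 with TSA. In MuSC Itga7 read 7.02, so its RNA was not alike in the populations sorted as a7-integrin+. A level is the log2 of the spot's processed intensity over the array's 75th percentile, so a value of 0 is a probe as bright as that percentile. The lowest level well above background was -4.62 and -4.33 with vehicle, -4.95 and -5.58 with TSA and -4.70 in MuSC. A dim probe could thus count as well above background at a lower level with TSA than with vehicle. Levels are comparable between arrays for 1 probe, not between probes. With RNA from sorted populations, fewer cells of a type and less RNA per cell cannot be told apart.

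The upstream sequence of 6 of the 10 genes (Pln, Atp2a1, Casq1, Casq2, Ryr1 and Cacna1s) was read from RefSeq's promoter windows on GRCm38.p6, from 250 bases before to 50 after the start site; Sln, Atp2a2, Ryr3 and Trdn had no entry. The sequences of 4 of them are shown, those of Pln, Casq2 and Casq1, which had the largest fitted TSA differences among the 6, and that of the pump gene Atp2a1, which was not called. Each is the stretch before the start site on the gene's own strand, and capitals mark matches to the E-box CANNTG, which myogenic bHLH factors can bind, or to the MEF2 motif. The windows are chr10:53337436-53337685 on the plus strand for Pln, chr3:102086165-102086414 on the plus strand for Casq2, chr1:172219896-172220145 on the minus strand for Casq1 and chr7:126463074-126463323 on the minus strand for Atp2a1.
Pln: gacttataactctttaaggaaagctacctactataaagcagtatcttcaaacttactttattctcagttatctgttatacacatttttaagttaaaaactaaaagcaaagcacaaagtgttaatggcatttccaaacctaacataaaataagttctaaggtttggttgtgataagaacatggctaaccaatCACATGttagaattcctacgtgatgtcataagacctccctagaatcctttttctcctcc
Casq2: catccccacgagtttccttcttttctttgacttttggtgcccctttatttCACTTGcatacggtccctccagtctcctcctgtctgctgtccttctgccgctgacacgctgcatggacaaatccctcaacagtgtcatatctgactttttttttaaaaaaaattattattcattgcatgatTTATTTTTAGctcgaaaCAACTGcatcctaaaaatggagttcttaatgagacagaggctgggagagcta
Casq1: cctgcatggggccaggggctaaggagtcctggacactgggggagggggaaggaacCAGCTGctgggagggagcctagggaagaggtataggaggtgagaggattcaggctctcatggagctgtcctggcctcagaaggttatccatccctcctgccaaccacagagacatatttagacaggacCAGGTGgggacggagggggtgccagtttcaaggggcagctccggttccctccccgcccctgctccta
Atp2a1: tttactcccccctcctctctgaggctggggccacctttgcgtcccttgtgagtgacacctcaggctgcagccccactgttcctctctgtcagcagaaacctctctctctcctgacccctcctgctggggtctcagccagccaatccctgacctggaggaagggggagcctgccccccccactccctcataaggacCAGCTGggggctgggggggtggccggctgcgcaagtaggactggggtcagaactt

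Over the full windows of 300 bases, searched on both strands, 5 of the 6 genes held an E-box, as did 72.3% of 32851 RefSeq promoters. Its form CAGCTG, which is counted within CANNTG, was present in 4 of 6, namely Pln, Atp2a1, Casq1 and Cacna1s, and in 16.3% of all promoters. The MEF2 motif was found in 1 of 6, Casq2, from -69 to -60, and in 3.19% of all promoters. The CArG motif of serum response factor was found in 0 of 6 and in 1.63% of all promoters. Ryr1 held none of these motifs in its window. A match is a description of the letters and not evidence of binding, and no binding was measured here.

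**Figure D1:**
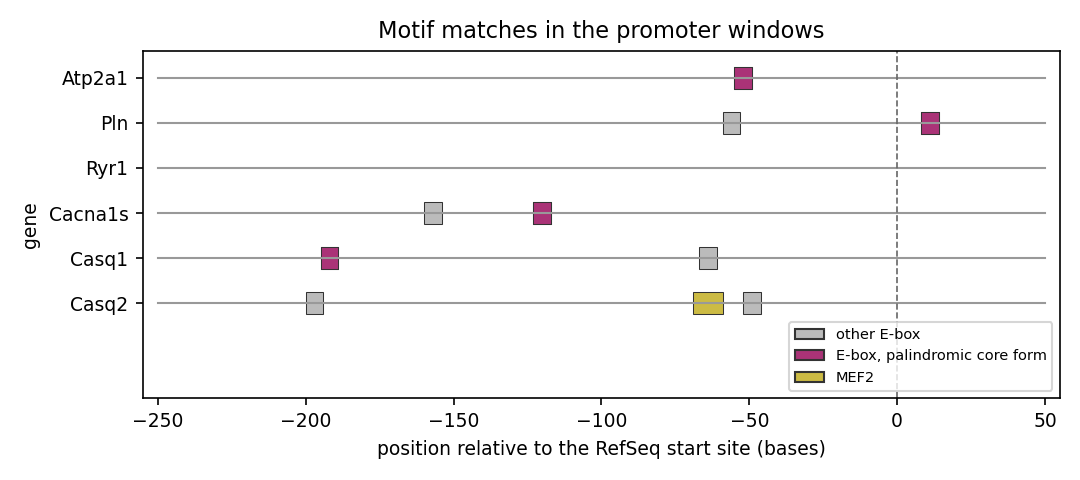
Motif matches in the 6 promoter windows available, one line per gene, drawn by position in bases from the RefSeq start site (dashed line). Boxes mark the E-box in its palindromic form, other E-boxes and MEF2; Ryr1 has no box, and Casq2 has the one MEF2 box.

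With TSA, 6 of the 10 genes rose in Sca1+ cells, Pln, Sln, Casq1, Casq2, Ryr1 and Trdn, of which Casq1, Ryr1 and Trdn had differences at or below 0 under another background correction (normexp, given with each gene). By fitted value, Pln (at least 24.5-fold) and Casq2 (23.2-fold) stood furthest from vehicle. Pln, Casq1, Ryr1, Ryr3 and Trdn were not well above background with vehicle, so their rank is not measured. The pumps Atp2a1 and Atp2a2, Ryr3 and the voltage sensor Cacna1s did not pass the threshold. The same 10 genes were all higher in MuSC than in vehicle Sca1+ cells, and 7 of them were lower in TSA-treated Sca1+ cells than in MuSC. With the main scaling the arrays of every gene fell in the same order, vehicle Sca1+ cells lowest, TSA-treated Sca1+ cells between and MuSC highest. The share of all genes in that order was not counted. Taken singly, TSA arrays above vehicle held for 22.9% of all genes tested, and TSA arrays below MuSC for 48.1%. Of the 10 genes, 6 passed the filter only through groups where they were high, which favours this order. With normexp the TSA differences of Casq1, Ryr1, Ryr3 and Trdn were below 0, so the order did not hold for them. The test was limma's moderated test over all 26085 genes, two-sided, with Benjamini-Hochberg adjustment at 0.05.

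Among all genes tested, 2.71% were called higher with TSA and 0.268% lower (708 and 70 genes); with a normexp background correction (an offset of 50 added to each spot before scaling) the split was 1250 higher and 5854 lower. At an unadjusted p under 0.05, 9 of the 10 genes were higher with TSA. Of all 26085 genes tested, 2727 were higher and 3319 lower at that p. Of the 6 called genes, 5 passed the filter only through the groups where they were high, so their count is no support for a difference. With no filter, 4 of the 10 were called, and Ryr1 (adjusted p = 0.116) and Trdn (adjusted p = 0.112) were not. The TSA arrays both lay above both vehicle arrays for 10 of 10 genes, and for 22.9% of all genes tested. The median difference of the 10 genes was 2.35, or 1.12 with the dim genes at their lower bound, against -0.13 over all genes tested. That all-gene median was -0.06 with quantile normalization, -0.04 with scaling to the median and -0.25 with normexp. For a probe that was dim on both vehicle arrays, that is, not well above background, the fold is given as a lower bound. For each dim array, the bound uses the probe's value or the lowest value that counts as well above background there, whichever is higher, and sets the mean of these against the brighter group's mean.

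These calls rested on 2 arrays a group. Without TSA replicate 1, or without TSA replicate 2, 0 of the 10 genes passed the threshold, as did 0 of all genes by limma (4912 and 3098 genes were at an unadjusted p under 0.05). The differences stayed of the same size, with Pln at 6.70 and 6.27 and a median of 2.35 over the 10 genes in both fits. Without vehicle replicate 1, or without vehicle replicate 2, 3 of the 10 remained called, Pln, Sln and Casq2.

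**Figure D2:**
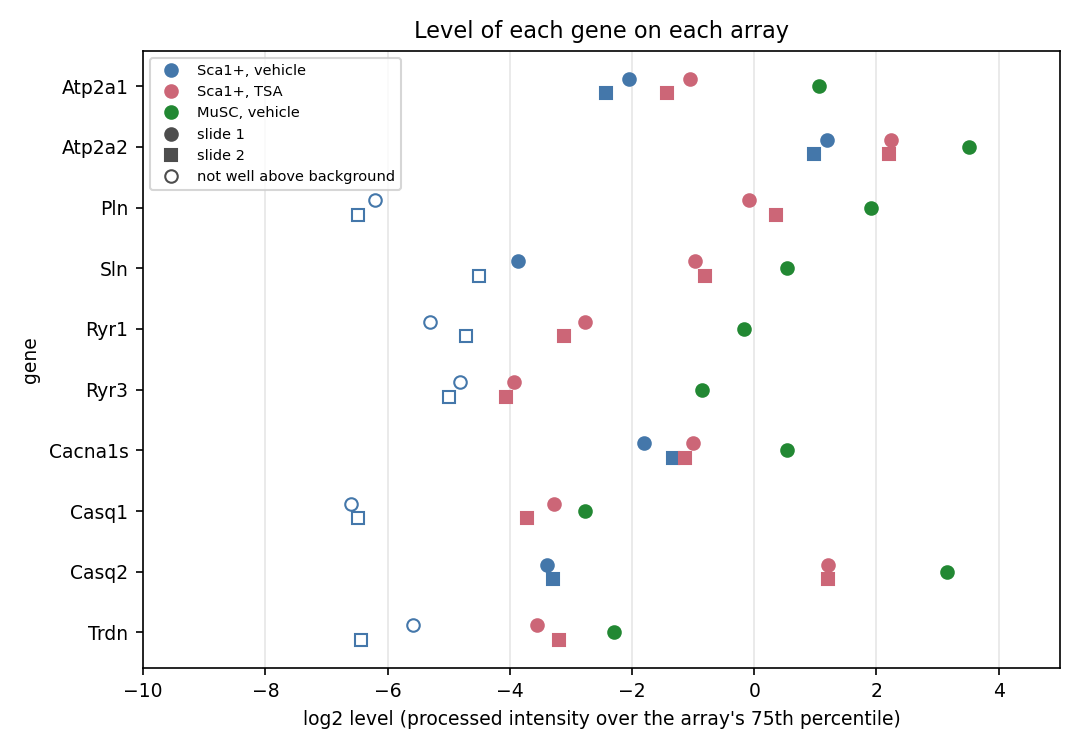
Level of each of the 10 genes on each of the 5 arrays (log2 of processed intensity over the array's 75th percentile), by group (colour) and slide (marker); open markers were not well above background. On every line the vehicle Sca1+ arrays lie lowest and the MuSC array highest, and 5 genes have open markers on both vehicle arrays.

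Of the SERCA pumps, Atp2a1, the fast-fibre pump, read -2.05 and -2.43 with vehicle, -1.05 and -1.43 with TSA and 1.06 in MuSC. Both TSA arrays were above both vehicle arrays, and the MuSC array was further above. The TSA difference was 1.00 ± 0.23 (log2 ± SE of the model, adjusted p = 0.122) and did not pass the threshold, although it was 0.996 on slide 1 and 1.00 on slide 2. Of 14 alternative settings 1, scaling to the median, called it (1.09, adjusted p = 0.0400), and normexp gave 0.34 (adjusted p = 0.234). Among the 14 is a fit of the Sca1+ arrays alone, which could not differ from the main fit, since 1 MuSC array adds nothing to the spread. In MuSC Atp2a1 was higher than in vehicle Sca1+ cells by 3.30 ± 0.29 (9.88-fold, adjusted p = 0.00459). The TSA level was 20.2% of the MuSC level, and lower than it at an adjusted p of 0.0174.

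Atp2a2, the pump of slow fibres, heart and many other cells, read 1.19 and 0.97 with vehicle, 2.24 and 2.20 with TSA and 3.52 in MuSC. The groups did not overlap, and the gap between groups was several times that between replicates. The TSA difference of 1.14 ± 0.16 (2.20-fold; 1.05 on slide 1 and 1.23 on slide 2) lay just outside the threshold at an adjusted p of 0.0521. Of the same 14 alternative settings 6 called it, with adjusted p from 5.07e-04 (normexp) to 0.0467 (replicate block). It lay outside with no filter (adjusted p = 0.152), with the mean of both probes (0.84, adjusted p = 0.106), with every probe on its own (adjusted p = 0.0656) and without any 1 of the Sca1+ arrays (adjusted p from 0.115 to 0.289). In MuSC the gene was higher by 2.44 ± 0.20 (5.41-fold, adjusted p = 0.00402), and the TSA level was 40.7% of that in MuSC (adjusted p = 0.0270).

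The fitted TSA differences of both pump regulators were larger than those of the pumps, a contrast that was not tested. With normexp they were 2.11 for Pln and 1.23 for Sln, against 0.34 for Atp2a1 and 1.18 for Atp2a2, so Sln and Atp2a2 were close. Pln, the phospholamban gene, read -6.21 and -6.49 with vehicle, not well above background on either array, then -0.08 and 0.35 with TSA and 1.91 in MuSC. The difference with TSA was at least 24.5-fold (fitted 6.48 ± 0.23, adjusted p = 0.00363), and the fitted value was 6.13 on slide 1 and 6.84 on slide 2. With normexp, whose offset raises dim signals, the difference of Pln was 2.11 (adjusted p = 8.91e-08), below that bound. MuSC stood at least 83.4-fold above vehicle Sca1+ cells (fitted 8.25 ± 0.28, adjusted p = 0.00141). The TSA level of Pln was 29.3% of the MuSC level, a difference of -1.77 ± 0.28 (adjusted p = 0.0280).

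Sln, the sarcolipin gene, read -3.87 and -4.50 with vehicle, the first alone being well above background, then -0.97 and -0.80 with TSA and 0.54 in MuSC. Vehicle and TSA arrays were far apart compared with the 0.63 and 0.17 between their replicates. It rose with TSA by 3.30 ± 0.26 (9.86-fold, adjusted p = 0.0139), by 2.90 on slide 1 and 3.70 on slide 2, and by 1.23 with normexp (adjusted p = 2.64e-04). In MuSC Sln was 26.4-fold higher than in vehicle Sca1+ cells (adjusted p = 0.00280). Its TSA level was 37.3% of the MuSC level, a difference of -1.42 ± 0.32 that did not pass the threshold (adjusted p = 0.0661; 0.0278 with median scaling). Of the 6 small regulators of this kind that were looked for, only Pln and Sln were matched to a probe by name; Mrln, Dworf, Strit1 and Erln were not analysed here.

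On the release side, Ryr1, the channel of skeletal muscle, read -5.31 and -4.72 with vehicle, not well above background on either array, -2.77 and -3.12 with TSA and -0.16 in MuSC. The 3 groups did not overlap. The TSA difference was at least 2.89-fold (fitted 2.07 ± 0.27, adjusted p = 0.0442), and the difference was 2.53 on slide 1 and smaller on slide 2. The call was lost with quantile normalization (adjusted p = 0.0522), with no filter (0.116) and with every probe on its own (0.0528), and with normexp the difference of Ryr1 was -0.012 (adjusted p = 0.975). In MuSC Ryr1 was at least 19.9-fold higher than in vehicle Sca1+ cells (adjusted p = 0.00280), and the TSA level was 14.5% of the MuSC level (adjusted p = 0.0161).

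Ryr3, the paralogue expressed early in muscle development, read -4.82 and -4.99 with vehicle, again not well above background, -3.93 and -4.06 with TSA and -0.85 in MuSC. The groups did not overlap, and the MuSC array stood well above the others. The difference with TSA, at least 1.40-fold (fitted 0.91 ± 0.16, adjusted p = 0.0789), did not pass the threshold. It was 0.89 on slide 1 and 0.93 on slide 2, but -0.41 with normexp. MuSC stood at least 12.4-fold above vehicle Sca1+ cells (adjusted p = 0.00155). The TSA level of Ryr3 was 11.3% of the MuSC level, lower by 3.14 ± 0.20 on the log2 scale (an adjusted p of 0.00516), and of the 10 genes it was the one furthest below MuSC.

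Cacna1s, the pore subunit of the dihydropyridine receptor that senses voltage, read -1.80 and -1.34 with vehicle, -0.99 and -1.13 with TSA and 0.53 in MuSC. The upper vehicle array was 0.21 below the TSA array of the same slide, so the groups came within a small distance of each other. The difference of 0.51 ± 0.22 (adjusted p = 0.256) did not pass, and was 0.81 on slide 1 and 0.21 on slide 2. In MuSC Cacna1s was 4.28-fold higher than in vehicle Sca1+ cells (adjusted p = 0.0112), and its TSA level was 33.2% of that in MuSC (adjusted p = 0.0332).

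Both calsequestrins, the luminal buffers, were called higher with TSA. The Casq1 difference was negative with normexp, and Casq1 lost its call without any 1 of the Sca1+ arrays. Casq2, the calsequestrin of heart and slow fibres, read -3.39 and -3.28 with vehicle, 1.20 and 1.20 with TSA and 3.16 in MuSC, well above background on all 5 arrays. Replicates differed by 0.10 and by 0.0011, the narrowest TSA spread of the 10 genes. The rise with TSA was 4.54 ± 0.15 (23.2-fold, adjusted p = 0.00358), at 4.59 on slide 1 and 4.49 on slide 2, and 2.67 with normexp (adjusted p = 3.17e-10). In MuSC Casq2 was 90.1-fold higher than in vehicle Sca1+ cells (adjusted p = 0.00141), and the TSA level was 25.8% of the MuSC level (adjusted p = 0.00921).

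Casq1, the calsequestrin of fast fibres, read -6.59 and -6.48 with vehicle, not well above background, -3.28 and -3.71 with TSA and -2.77 in MuSC. The TSA arrays lay close to the MuSC array. Against vehicle, the difference with TSA was at least 1.97-fold (fitted 3.04 ± 0.21, adjusted p = 0.0101; 3.31 on slide 1 and 2.77 on slide 2), but -0.18 with normexp (adjusted p = 0.582). MuSC was at least 3.27-fold higher (adjusted p = 0.00280; 0.474 with normexp). Casq1 in TSA-treated Sca1+ cells was at 60.5% of its MuSC level, and that difference of -0.73 ± 0.26 did not pass the threshold (adjusted p = 0.161).

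Trdn, which anchors calsequestrin at the release channel, read -5.58 and -6.44 with vehicle, not well above background, -3.55 and -3.20 with TSA and -2.29 in MuSC. The vehicle replicates were 0.86 apart, the widest vehicle gap of the 10 genes. The difference with TSA was at least 2.15-fold (fitted 2.64 ± 0.35, adjusted p = 0.0438), 2.03 on slide 1 and 3.24 on slide 2, and -0.18 with normexp (adjusted p = 0.564). With every probe on its own the adjusted p was 0.0520, and with no filter 0.112. MuSC stood at least 4.55-fold above vehicle (adjusted p = 0.00864; 0.197 with normexp). The TSA level of Trdn was 47.2% of the MuSC level, a difference that did not pass the threshold (adjusted p = 0.190).

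**Figure D3:**
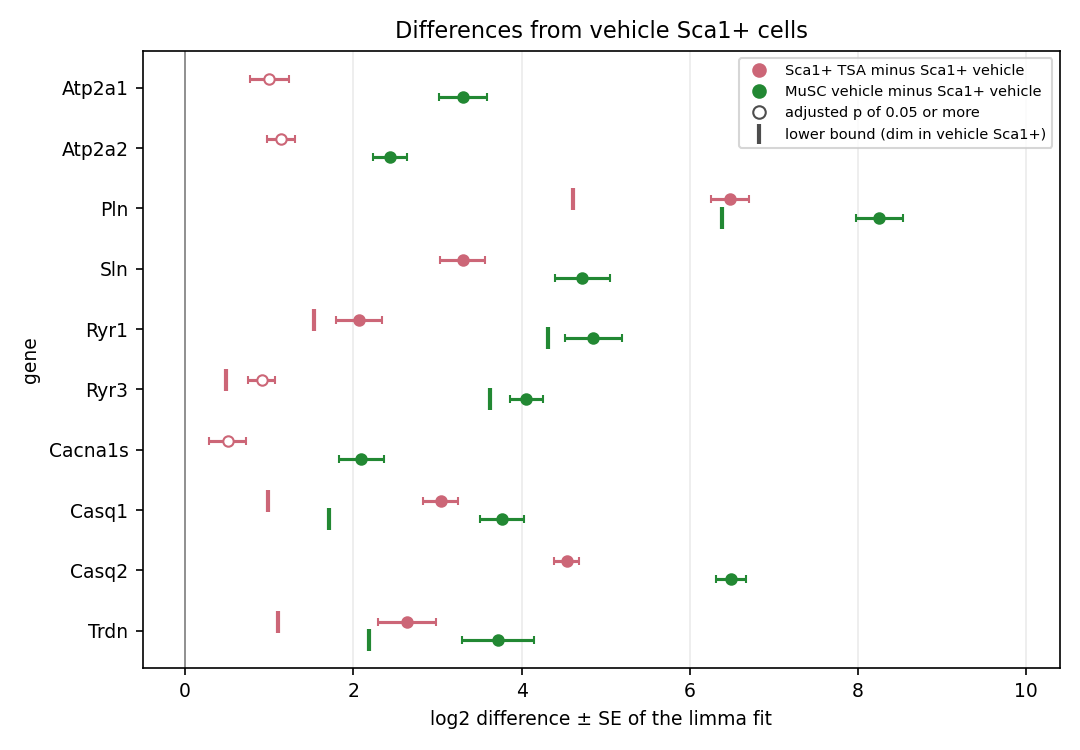
Log2 difference from vehicle Sca1+ cells of each gene, for TSA-treated Sca1+ cells and for MuSC, with the standard error of the limma fit; open points have an adjusted p of 0.05 or more and upright bars are lower bounds for genes dim in vehicle. Pln and Casq2 lie furthest right in both comparisons, and the 4 open points are the TSA differences of Atp2a1, Atp2a2, Ryr3 and Cacna1s.

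The comparison of both vehicle populations placed the 10 genes on the side of MuSC. All 10 were called higher in MuSC, against 10.5% of 26080 genes tested (11.7% were lower), with adjusted p from 0.00141 to 0.0112 and a median difference of 3.91, or 3.47 with the dim genes at their bounds. The MuSC group was a single array, and limma assumed that it varies like the Sca1+ arrays. For 10 of 10 genes the MuSC array lay above both vehicle arrays, as it did for 39.3% of all genes. Of the 10, 6 passed the filter only through groups where they were high, so their count is no support for a difference. The 4 genes well above background on all arrays were all called higher, at a median of 2.87. Normexp kept 8 of the 10 calls, without Casq1 and Trdn, and each fit without 1 Sca1+ array kept all 10.

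Population and treatment differ together between TSA-treated Sca1+ cells and vehicle MuSC, so that difference is a distance between levels and not an effect of either. Of the 10 genes, 7 were called lower in TSA-treated Sca1+ cells, against 4.84% of all genes (1261, with 7.96% higher). Both TSA arrays lay below the MuSC array for 10 of 10, against 48.1% of all genes. Sln, Casq1 and Trdn were the 3 below the MuSC level without a call. The share of the MuSC level ran from 11.3% for Ryr3 and 14.5% for Ryr1 to 60.5% for Casq1. Without TSA replicate 1, 1 of the 10 was called lower (Ryr3), without TSA replicate 2, 0, and without either vehicle array Pln lost its call (adjusted p = 0.0553 each) and Sln gained one (adjusted p = 0.0492 each), both at unchanged differences. The 3 comparisons share arrays, so their values are not independent of each other.

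Atp2a2, Cacna1s and Trdn were measured by more than 1 probe. The array files place the probes on mm9; exon and UTR annotation on that build was not used here. Which forms of Atp2a2 each of its probes reads was therefore not determined. The chosen Atp2a2 probe (chr5:122903704-122903763) starts at base 4073 of its listed transcript, and the other (chr5:122910660-122910719) at base 2567. The second read -0.49 and -0.88 with vehicle, -0.06 and -0.23 with TSA and 1.40 in MuSC. Its order of groups was the one of the chosen probe, with a smaller TSA difference of 0.54 ± 0.21 (adjusted p = 0.241 over all probes) and a MuSC difference of 2.09 ± 0.25 (adjusted p = 0.0114).

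The chosen Cacna1s probe (chr1:138016020-138016079) starts at base 5871, and the other (chr1:138015618-138015677) at base 5469. That other probe was not well above background with vehicle, at -5.49 and -6.57, and read -4.60 and -4.54 with TSA and -2.69 in MuSC. Neither Cacna1s probe was called with TSA (1.46 and adjusted p = 0.168 for the second), and the second was at least 3.45-fold higher in MuSC. The chosen Trdn probe (chr10:32919981-32920040) starts at base 962. A second Trdn probe (chr10:32915796-32915855, from base 892) read -5.36 and -6.63 with vehicle, -4.39 and -4.12 with TSA and -2.91 in MuSC, at least 1.17-fold higher with TSA without a call (adjusted p = 0.163). The third (chr10:33194264-33194323, from base 2262) was not well above background on any of the 5 arrays, where the first and second Trdn probes were well above it on all TSA and MuSC arrays. With the mean of all probes in place of the brightest, Trdn lost its call with TSA (0.95, adjusted p = 0.269) and in MuSC (2.11, adjusted p = 0.0602).

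**Figure D4:**
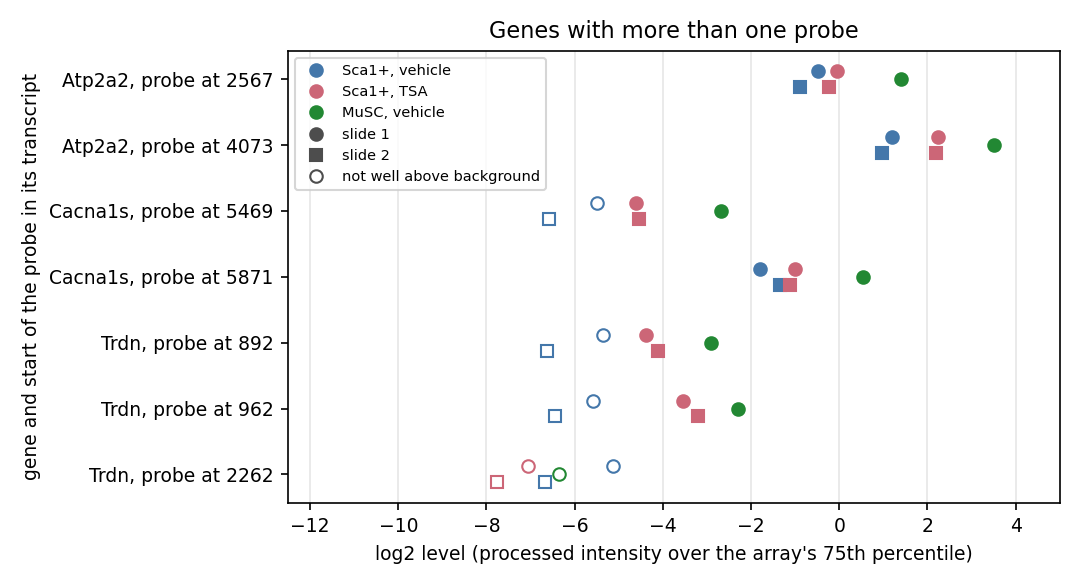
Level on each array of every probe of the genes with more than 1 probe (log2 of processed intensity over the array's 75th percentile), labelled by the probe's start in its transcript; open markers were not well above background. Both Atp2a2 probes, both Cacna1s probes and Trdn probes at 892 and 962 have vehicle lowest and MuSC highest, and the Trdn probe at 2262 is open on all 5 arrays.

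The other 7 genes had 1 probe each. Pln was read at chr10:53064944-53065003, Sln at chr9:53701574-53701633, Atp2a1 at chr7:133591703-133591762 and Ryr3 at chr2:112471537-112471596. Casq2 was read at chr3:101949827-101949884. The probes of Casq1 (chr1:174140602-174142105) and Ryr1 (chr7:29788789-29789487) span 1504 and 699 bases of the genome with 60 bases of probe, so each was placed on more than 1 stretch of the genome.

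Of 24 other genes of excitation-contraction coupling tested, 6 were called higher with TSA and 0 lower (11 and 2 at an unadjusted p under 0.05), with a median of 0.51; with normexp the calls were 6 higher and 2 lower, and the median was 0.093. By fitted value the furthest were Jph2, a junctophilin that holds the sarcoplasmic reticulum to the plasma membrane, and Cacng1, the gamma subunit of the voltage sensor's channel, both dim with vehicle, so that their rank is not measured. Jph2 read -6.44 and -5.23 with vehicle, not well above background, and -1.55 and -1.43 with TSA, at least 7.94-fold higher (adjusted p = 0.0234). Cacng1 was at least 3.82-fold higher (adjusted p = 0.0285), without a call under normexp (0.24, adjusted p = 0.402).

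The remaining 4 calls are named after their values were seen. They were Hrc, a luminal calcium-binding protein (2.26 ± 0.18, or 4.78-fold, well above background on all 5 arrays), Srl, sarcalumenin of the lumen (1.95 ± 0.21), Stac3, a partner of Cacna1s (1.56 ± 0.19), and Atp2a3, the third SERCA pump (1.71 ± 0.23, adjusted p = 0.0484); Srl had no call with normexp (0.32, adjusted p = 0.258). The cardiac channel Ryr2, also singled out afterwards, was not well above background with vehicle and did not pass (fitted 2.35 ± 0.34, adjusted p = 0.0549; -0.30 with normexp). In MuSC, 13 of the 24 were higher and 2 lower than in vehicle Sca1+ cells, with Cacng1 at least 43.8-fold and Jph2 at least 25.7-fold higher, and a median of 2.00. The 2 lower genes were Fkbp1b, which binds the release channel, by -2.38 ± 0.18, and Selenon by -0.95 ± 0.18. TSA-treated Sca1+ cells were below MuSC for 8 of the 24, led by Cacng1 (-3.52 ± 0.46) and Ank1 (-3.07 ± 0.23), and above for 1, Fkbp1b.

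**Figure D5:**
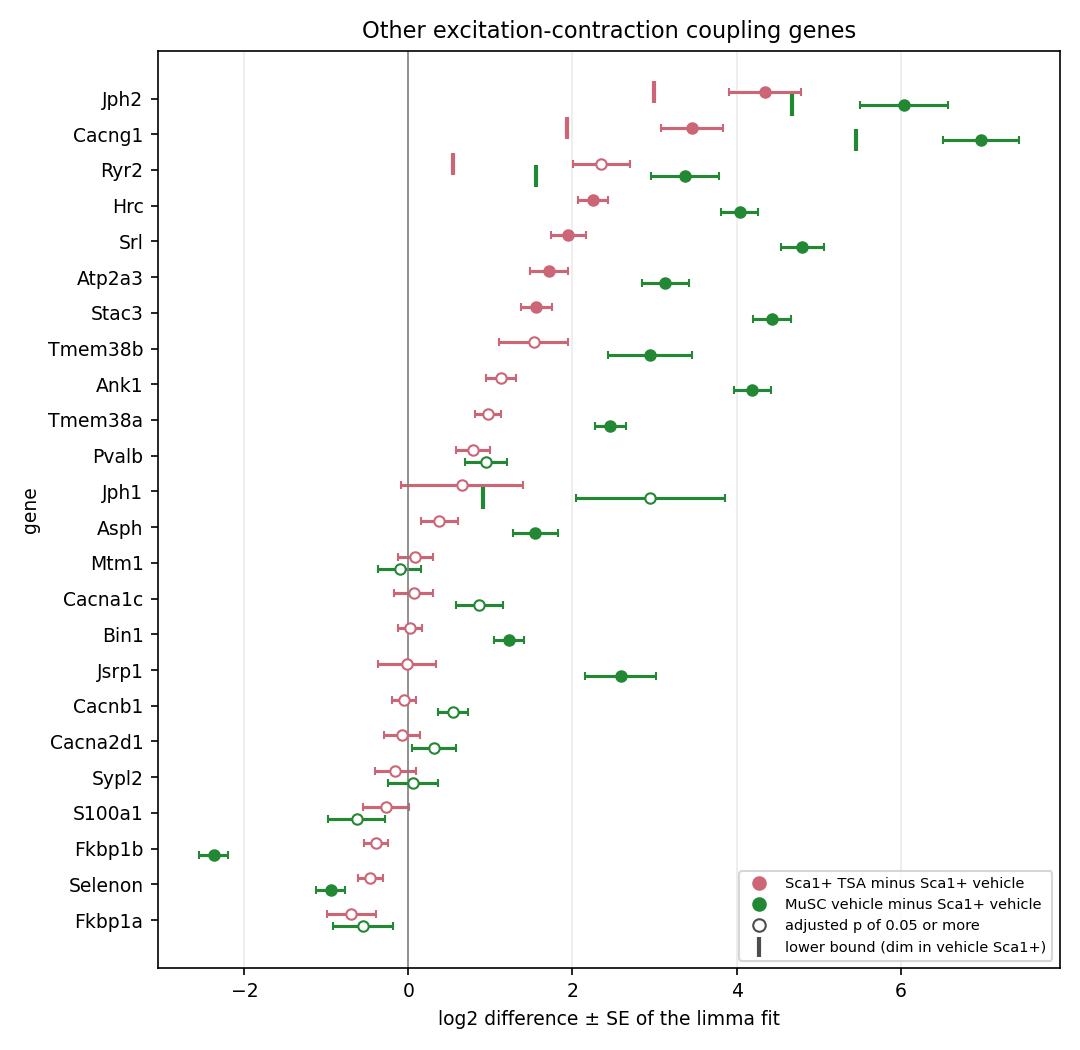
Log2 difference from vehicle Sca1+ cells, with the standard error of the limma fit, of 24 other excitation-contraction coupling genes, ordered by the TSA difference; open points have an adjusted p of 0.05 or more and upright bars are lower bounds for genes dim in vehicle. The 6 filled TSA points have Jph2 and Cacng1 furthest right, and 13 of the filled MuSC points lie above 0.

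A further list held calcium genes that are not particular to muscle, such as store-operated entry, inositol trisphosphate receptors, plasma membrane pumps, exchangers and calmodulin. Of 29 tested, 1 was higher with TSA and 0 lower (5 and 3 at an unadjusted p under 0.05), close to the 2.71% of all genes called higher, at a median of -0.02 against -0.13 over all genes; with normexp 4 were higher and 4 lower. The 1 gene was Slc8a2, a sodium-calcium exchanger, which read -2.31 and -2.37 with vehicle, 0.72 and 0.65 with TSA and 1.86 in MuSC (3.02 ± 0.15 with TSA, adjusted p = 0.00480). In MuSC 7 were higher and 6 lower, with Slc8a2 (4.20 ± 0.18) and Slc8a1 (-2.38 ± 0.54) furthest.

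Markers of other cell types moved in the same comparison. With TSA, 14 of 23 markers of striated muscle were higher and 0 lower, Actc1 (4.93 ± 0.16) and Myog (4.89 ± 0.20) furthest. Their summed level was 6.64 and 6.67 with vehicle and 40.7 and 46.5 with TSA, 18.1% and 20.7% of the 225 in MuSC. A summed level adds the unlogged levels of the tested genes of a list, so it rests most on the brightest probes. Myh2, Mylpf, Ttn and Tnnc1 were dim on both vehicle arrays. Of 11 satellite cell markers 7 were higher and 0 lower, Chrdl2 and Calcr at least 14.3-fold and 4.99-fold, and Cdh15, named after its values were seen and well above background on all 5 arrays, 20.6-fold. Their summed level went from 19.9 to 21.1 with vehicle to 66.2 to 67.5 with TSA, 19.1% to 19.5% of the MuSC level, and Myf5, Calcr and Chrdl2 were dim on both vehicle arrays.

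Of 14 markers of smooth muscle and pericytes, 9 were higher and 0 lower, Cnn1 by 6.12 ± 0.16 and Myocd at least 18.2-fold, with Lmod1 and Myocd dim on both vehicle arrays. This list's summed level was 86.3 and 94.1 with vehicle, 645 and 599 with TSA and 1636 in MuSC. It rests most on Tagln and Acta2, the brightest of the list in MuSC at 9.52 and 9.33. Mast cell markers were higher for 5 of 6, among them Cpa3 (6.89 ± 0.63) and Fcer1a (at least 14.5-fold), at a summed level of 1.83 and 2.17 with vehicle, 32.4 and 29.8 with TSA and 1.27 in MuSC; Cma1 and Fcer1a were dim with vehicle. Red cell markers were higher for 3 of 4 tested, with Alas2 and Hbb-b2 furthest, at 39.3 and 41.0, then 602 and 627, and 15.6 in MuSC. Endothelial markers were higher for 1 of 7 (Vwf) and macrophage markers for 0 of 6, with 0 lower in both lists by limma (at an unadjusted p under 0.05, 5 and 4 were higher and 0 and 1 lower). Of 10 markers of fibroadipogenic progenitors, Cd55 (-1.40 ± 0.17) and Pi16 (-1.37 ± 0.18) were called lower with TSA. All 10 differences were negative and 8 had an unadjusted p under 0.05. Over all 26085 genes tested, 10063 differences were positive, and 3319 genes were lower at that p. Normexp called 9 of the 10 markers lower and median scaling 4. The summed level was 2982 and 4591 with vehicle, 1853 and 1903 with TSA and 282 in MuSC. With quantile normalization, median scaling, normexp and the deposited table, 0 markers of striated muscle, satellite cells, smooth muscle, mast cells or red cells were called lower with TSA, while 1 endothelial marker was with normexp. The part of these cell types in the differences of the 10 calcium genes was not tested.

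Over the 5 arrays, the gene whose centred profile lay nearest to each of the 10, among 15502 named genes, was found by the root mean square distance in log2 units. Pln was nearest to Cnn1, the smooth muscle calponin, at 0.320, the widest distance of the 10. Casq2 was nearest to Susd5 (0.107), Sln to Ppm1l (0.0978), Atp2a2 to Cdc20 (0.0660) and Atp2a1 to Zfp568 (0.0571). Ryr1 was nearest to Tyrp1 (0.173), Ryr3 to Sytl2 (0.0985), Cacna1s to Tec (0.0803), Casq1 to Inpp5j (0.193) and Trdn to Scn2b (0.138). With 5 arrays and so many candidates, such nearness is a description of these arrays only.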

How the data were processed

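RNA of sorted cells was labelled with Cy3 and hybridised to 5 Agilent arrays of 1 colour, per the labels' protocols. Per the file headers, Agilent Feature Extraction 10.7.3.1 read the spot intensities; the processed intensity used here is background-subtracted and not scaled between arrays. The deposited value table is in log2 and quantile normalized, judged from its shared median of 4.67 and its rank agreement with the scanner values; the tool that made it is not given in the sources used here.

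Values were log2 of the processed intensity minus each array's 75th percentile over non-control spots. Control spots and outlier spots (0.196% to 0.334%) were left out, spots of 1 probe were averaged, and the probe with the highest mean stood for a gene. An accession in a RefSeq table named 26413 of 55681 probes, a shared design name 574 more, and the rest carry the array's own, possibly outdated, name. A gene was tested if all arrays of some group had it well above background. The tests used limma 3.58.1 (lmFit and eBayes in R 4.3.3) on 5 arrays in 3 groups, with 2 residual and 2.30 prior degrees of freedom, and precision is limited by how few arrays there are. The method was tested on simulated data.

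The members and lists were chosen with earlier results of these data known. Every member and probe is described; of other lists the 2 called genes with the largest fitted difference are named, and 1 marker list is not reported here. Normalization, background correction, filter, probe choice, replicate block and left-out arrays were varied. Replicate numbers 1 and 2 deviated together between vehicle and TSA (correlation 0.348), and 2 pairs are too few to settle pairing.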

Additional observations from a re-analysis of the deposited data

How the results depend on the processing

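The planned normexp on mean spot signal was not run, because replicate 2 files hold no mean signal; normexp on the median spot signal was chosen after seeing the data. It reversed Casq1 (-0.18), Ryr1 (-0.012), Ryr3 (-0.41) and Trdn (-0.18) for TSA against vehicle. By its construction the offset of 50 sets a floor at -2.55 and -2.14 for vehicle, -2.93 and -3.33 for TSA and -2.57 for MuSC, above the vehicle levels of these 4 genes. The floor was lower on both TSA arrays than on both vehicle arrays, so a probe at the floor throughout would read lower with TSA. The part of this in the reversed signs was not tested.

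For TSA against vehicle, 778 genes were called; with normexp 7104 (17.6% of them higher, against 91.0%), with median scaling 1475 and with no filter 283, and 0 to 321 without 1 array. Of the 10 genes 6 were called; requiring signal on all arrays left 4 tested and 2 called, and 0 to 3 were called without 1 array. For MuSC against vehicle Sca1+ cells 5778 genes were called, 3380 with no filter and 3419 to 4297 without 1 array; of the 10 genes, 4 of the 4 tested with signal on all arrays were called. For TSA-treated Sca1+ cells against MuSC 3337 were called (62.2% higher, 52.0% with normexp), 1307 with no filter and 0 to 2345 without 1 array; of the 10 genes 3 were called with no filter, 4 of 4 with signal on all arrays, and 0 to 7 without 1 array. The causes of these changes were not tested, beyond fewer samples or another set of genes tested.

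With the replicate block, 1098 genes were called for TSA against vehicle, 6124 for MuSC and 3491 for TSA-treated Sca1+ cells against MuSC; of the 10 genes 7, 10 and 7 were called, and Atp2a2 with TSA (adjusted p = 0.0467) was the one call that changed. The replicate number is also the slide, so this block is a slide block, which the main fit leaves out. The single MuSC array lay on slide 1 and was set against Sca1+ arrays of both slides. Whether the numbers also pair the samples in another way is not settled. In dim spots the signal over background, not the fold, limits what can be read.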
